A study of Mus musculus with 2 samples.

Results

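The 9 genes described here encode the receptors Lag3, Havcr2 (the Tim-3 protein), Tigit, Cd226, Cd96 and Cd244a and the ligands Lgals9 (galectin-9), Pvr and Nectin2. They were taken by gene symbol from the 32285 features of both matrices, and all 9 were present. The 2 libraries, 1 from a knockout (KO) and 1 from a wild-type (WT) genotype, were made from leukocytes of tumours of B16-F0, a melanoma line of mouse origin. Living CD45+ cells had been sorted and loaded on the 10x Genomics droplet platform, although the labels call the cell type tumour-infiltrating regulatory T (Treg) cells. Which gene was deleted is not stated, so the genotypes could not be checked on a targeted gene, and strain, age, number and pooling of the mice are also not given. Both groups carry the tumour, and genotype is the difference the labels give. Each genotype was 1 library, so no test was possible and every interval covers counting error only, and library and genotype cannot be told apart.

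Lag3, Tim-3 and Tigit are inhibitory receptors that T cells and NK cells display after activation, and they accumulate on T cells under lasting antigen stimulation in tumours. Lag3 binds MHC class II on antigen-presenting cells, while Tim-3 has several described partners, among them galectin-9 and Ceacam1. Tigit, Cd96 and the activating receptor Cd226 form a set that shares the ligand Pvr, and Nectin2 is a ligand of some of them. Cd244a (2B4) binds Cd48 and signals through small adaptor proteins of the SAP family.

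In the GENCODE annotation of GRCm38, the assembly also called mm10, Lag3 lies on the minus strand at chr6:124904361-124911705. Havcr2 (chr11:46454935-46481255, plus strand) and its partner gene Lgals9 (chr11:78962974-78984946, minus strand) lie on the same chromosome, as do Tigit (chr16:43648867-43664146) and Cd96 (chr16:46035657-46120251), both on the minus strand. Nectin2 (chr7:19716644-19750483) and Pvr (chr7:19903578-19921160) lie on the minus strand, and Cd244a (chr1:171559193-171609746) on the plus strand. No member overlapped another annotated gene on its own strand. Pvr overlapped 2 and Nectin2 and Cd244a 1 gene each on the opposite strand, which for Cd244a was Ly9, and the strand setting of the counting is not stated, so the values of these 3 genes are uncertain to that extent.

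The 250 bases before the annotated start are shown for the 2 genes of the Tim-3 axis, Havcr2 and Lgals9, from RefSeq on GRCm38.p6. Below, Havcr2 was past 1.5-fold in CD8 T cells among other classes and Lgals9 in monocytes, and these calls were lost under some settings. Windows were searched on both strands for the AP-1 motif TGANTCA, the STAT motif TTCNNNGAA and the core of the interferon-stimulated response element, and matches are in capitals.
Havcr2: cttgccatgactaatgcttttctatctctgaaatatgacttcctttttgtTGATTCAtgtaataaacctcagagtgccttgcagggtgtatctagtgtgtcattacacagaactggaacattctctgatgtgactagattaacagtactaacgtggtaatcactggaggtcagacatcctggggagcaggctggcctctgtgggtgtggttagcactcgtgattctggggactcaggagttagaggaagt
Lgals9: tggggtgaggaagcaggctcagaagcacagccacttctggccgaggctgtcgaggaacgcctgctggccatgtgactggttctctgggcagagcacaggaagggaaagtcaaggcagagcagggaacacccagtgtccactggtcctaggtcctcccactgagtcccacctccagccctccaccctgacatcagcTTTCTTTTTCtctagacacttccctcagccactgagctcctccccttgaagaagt
The Havcr2 window (chr11:46454681-46454930, plus strand) held 1 AP-1 match that began 200 bases before the start, and the Lgals9 window (chr11:78984925-78985174, minus strand) held 1 interferon-response match that began 55 bases before it. Of 32851 promoter windows of this length, 6.75% held the AP-1 motif, 2.98% the interferon-response core and 7.02% the STAT motif. A search for the RUNX motif TGTGGT and the T-box motif GGTGTGA, left in lower case, found 1 RUNX match in Havcr2, 46 bases before the start, and none in Lgals9. These motifs were in 14.0% and 3.33% of windows. Of the other 4 windows held for members, Cd244a had 1 AP-1 match, Cd96 had 1 STAT and 1 RUNX match, Tigit 1 RUNX match and Nectin2 1 T-box match. These matches describe the letters in the windows and no binding was measured.

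After cells under 500 genes or 1000 UMIs (unique molecular identifiers, 1 per captured RNA molecule) or over 10% mitochondrial UMIs were left out, 11131 KO and 11153 WT cells stayed, with medians of 6360 and 5191 UMIs. Cells were put in classes by whether they held UMIs of marker genes, none of them a member, and 12 classes had at least 100 cells in each library. CD8 T cells numbered 2309 in KO and 1535 in WT, NK cells 2046 and 1158, and Treg cells 628 and 277. Conventional CD4 T cells numbered 741 in KO and 464 in WT, gamma-delta T cells 344 and 176, and T cells outside these gates 1073 and 804. Monocytes numbered 1050 in KO and 581 in WT, macrophages 374 and 234, type 1 conventional dendritic cells (cDC1) 146 and 134, cDC2 393 and 257, plasmacytoid dendritic cells (pDC) 108 and 216, and B cells 424 and 3505. Cd3e, itself a gene of the T-cell gate, was detected in 92.7% of KO and 90.7% of WT CD8 cells, shares largely set by the gate. The Treg gate used Ikzf2 with activation receptors and not Foxp3, the defining Treg factor, which was detected in 18.6% of KO and 43.7% of WT Treg cells. Cells meeting the gates of 2 lineages, 999 in KO and 1273 in WT, were set aside. The libraries shared 41 barcodes among kept cells, 5 of them in the same class in both.

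Levels are a gene's UMIs as CPM, a share of all UMIs of the class scaled as is usual for such counts, so they are relative to the other RNA of the class. Lag3 was highest in pDC, at 176 CPM in KO and 160.0 CPM in WT, and next in CD8 T cells, at 105 CPM in KO and 67.2 CPM in WT. Treg cells had 43.0 CPM in KO and 28.3 CPM in WT, and T cells outside the gates had 42.0 and 23.7 CPM, 2 neighbours whose intervals overlapped in both libraries. Lag3 RNA was therefore not limited to T cells, and 64.8% of KO and 67.6% of WT pDC held a UMI of it. With each cell thinned to 2000 UMIs the shares were 28.7% and 27.0%, against 0.240% of KO and 0.145% of WT B cells, whose median depths were 3453 and 3331 UMIs. Macrophages held 6 Lag3 UMIs in KO and 3 in WT, and monocytes 6 and 1.

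Havcr2 marked both CD8 T cells and myeloid cells. CD8 T cells had 52.2 CPM in KO and 34.1 CPM in WT, monocytes 32.8 and 42.6 CPM, and cDC1 29.2 and 39.4 CPM. CD8 T cells stood above monocytes in KO, whereas in WT monocytes, cDC1 and CD8 T cells had overlapping intervals. The KO order did not hold when cells were thinned, weighted equally or taken without cycling cells. NK cells held 14 Havcr2 UMIs in KO and 5 in WT, or 1.27 and 0.725 CPM, close to the 0.556 CPM of WT B cells. Lgals9, whose product galectin-9 is a sugar-binding protein, was found in every class. Among the 12 classes, the highest levels were in monocytes, with 158 CPM in KO and 105 CPM in WT, and macrophages, with 141 and 137 CPM. Monocytes came first in KO, with an interval that overlapped that of macrophages, and macrophages came first in WT. B cells had 36.4 and 44.2 CPM.

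Within the Tigit family, the inhibitory Tigit and the other receptors had separate distributions. Tigit was highest in Treg cells, at 10.1 CPM in KO and 15.5 CPM in WT, followed by CD8 T cells at 5.64 and 4.37 CPM and NK cells at 4.98 and 4.21 CPM. It was detected in so few cells, 8.12% of KO and 11.9% of WT Treg cells, that only 4 classes reached the 20 UMIs over both libraries needed to count as measured. Cd226, the activating counterpart, was high in all T classes and was highest in gamma-delta T cells in KO, at 129.6 CPM against 99.4 CPM in WT, with CD8 T cells at 86.2 and 103 CPM. NK cells had 71.2 CPM in KO and 57.7 CPM in WT. Cd96 ran from 35.5 to 55.0 CPM over the KO and from 26.7 to 52.3 CPM over the WT T and NK classes, and its neighbours in order had overlapping intervals in KO.

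Cd226 was also present where Cd96 was nearly absent. In cDC1 there were 95 Cd226 UMIs in KO and 66 in WT, or 33.1 and 23.2 CPM, beside 2 and 0 Cd96 UMIs. A count of 0 allows up to 1.05 CPM in WT cDC1. Macrophages had 9.97 CPM of Cd226 in KO and 7.12 CPM in WT, with 2 and 0 Cd96 UMIs. Summed Cd3d, Cd3e, Cd3g and Trac were at 10.8 CPM in KO and 6.33 CPM in WT cDC1. Cells that also met the T-cell gate, which uses Cd3d, Cd3e and Cd3g, had been set aside, so this low sum was partly fixed in advance. Whether T-cell RNA contributed to the Cd226 UMIs of cDC1 was not tested.

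The ligands of this family differed in the sorted leukocytes, with Pvr measured in all 12 classes and Nectin2 scarce. Pvr reached 28.0 CPM in KO and 26.8 CPM in WT monocytes, and 19.7 and 23.6 CPM in conventional CD4 T cells. Mature dendritic cells, with 46 cells in KO and 45 in WT too few to compare, had 35.1 and 42.6 CPM of Pvr. Nectin2 was measured in none of the 12 classes. Its largest KO count there was 14 UMIs in monocytes, beside 3 in WT monocytes. The largest WT count there was 6 UMIs, in cDC2 and in macrophages. Mature dendritic cells had 3 Nectin2 UMIs in KO and 8 in WT, or 5.02 and 13.1 CPM. The sort selected for CD45, which tumour cells of this kind lack, so ligand levels of the tumour were not measured here.

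Cd244a was highest in NK cells, at 100.2 CPM in KO and 86.9 CPM in WT. Among the 12 classes monocytes followed at 60.6 CPM in KO and 70.1 CPM in WT, and cDC2 at 59.8 and 56.2 CPM. CD8 T cells had 12 CPM in KO and 11 CPM in WT. Its ligand gene Cd48 was measured in every class, from 117 CPM in B cells to 296 CPM in cDC2 in KO, against 109 and 293 CPM in WT.

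**Figure D1:**
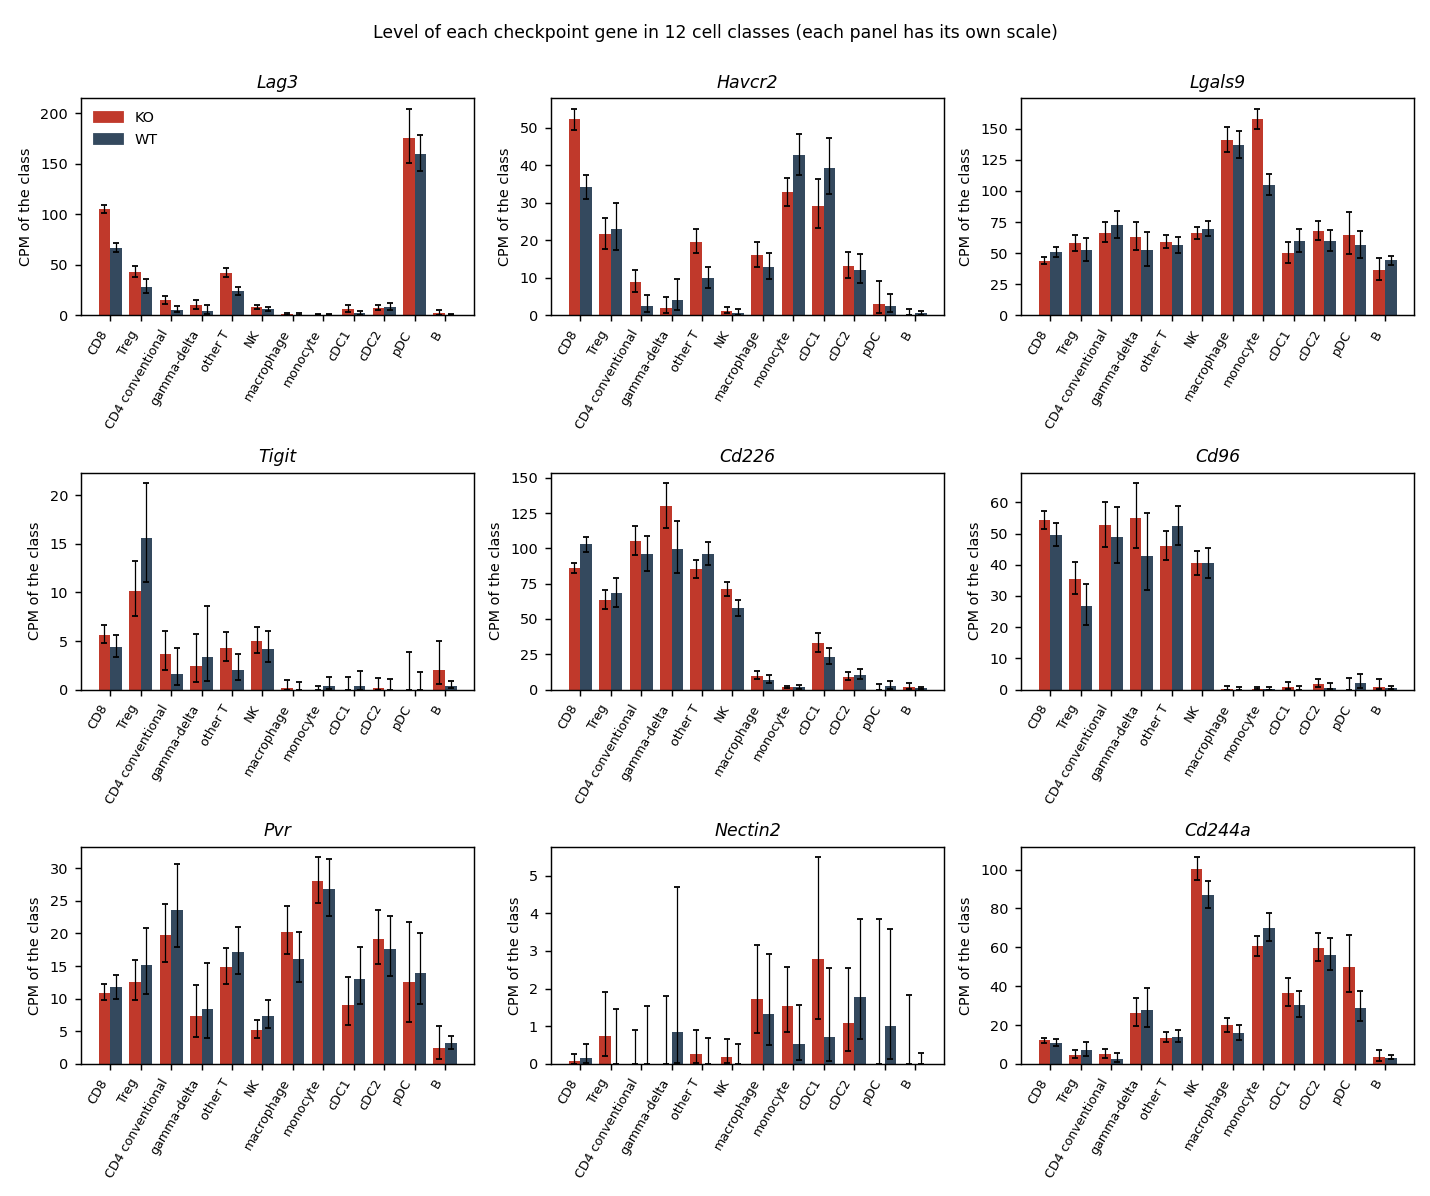
Level of each of the 9 genes in 12 cell classes, in CPM of the class (linear axes from 0, a scale per panel), with KO left of WT and exact 95% Poisson intervals. Lag3 peaks in pDC and CD8 T cells, Cd96 stays under 2 CPM outside the T and NK classes, and Nectin2 stays under 3 CPM.

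Of 108 pairs of member and class, 74 were measured, and in 11 of these the gene was at least 1.5-fold higher in KO with an interval of the ratio that excluded 1. None was lower by the same rule, and the 11 pairs involved Lag3, Havcr2, Tigit, Lgals9 and Cd244a. This size rule, with no test behind it, is what higher and lower mean below, and the share of all measured features past it is given for each class. Ratios are log2 of KO over WT CPM with the 95% interval in parentheses.

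**Figure D2:**
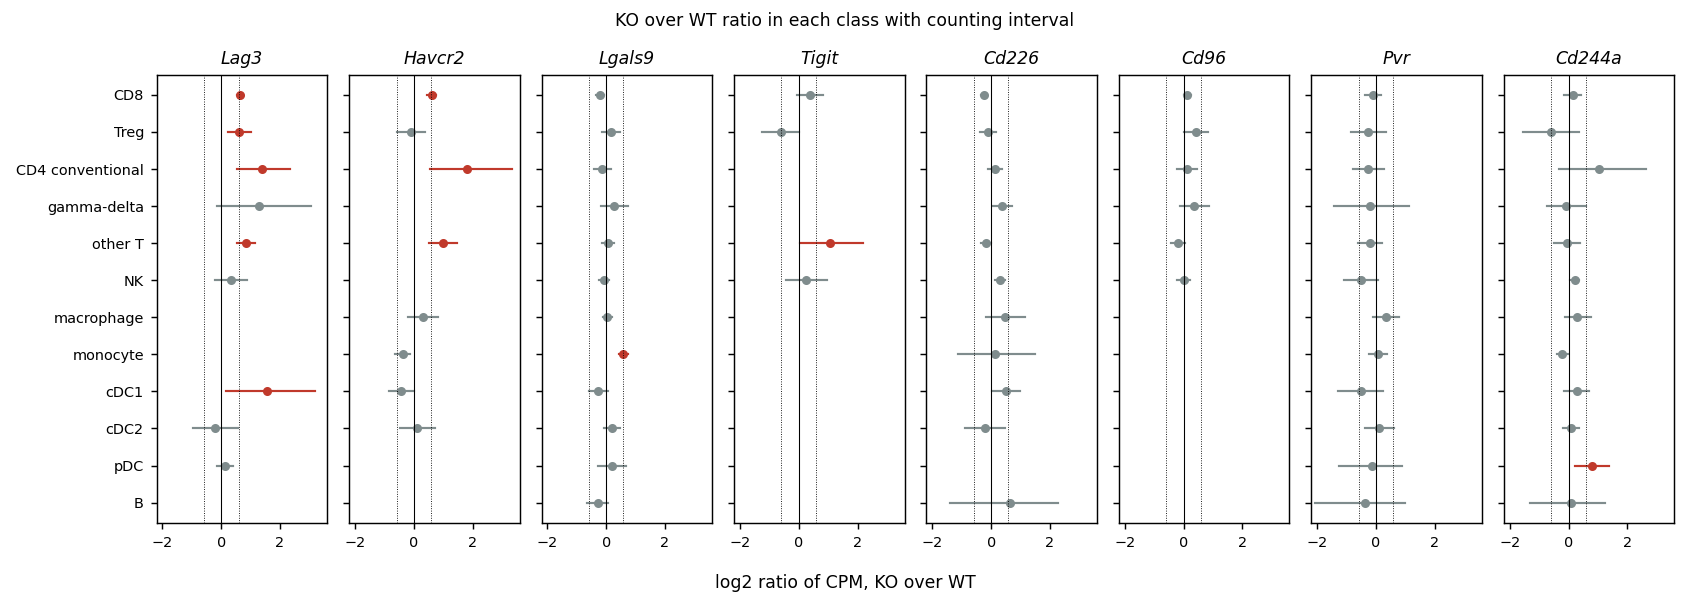
Log2 ratio of KO over WT CPM for 8 of the genes in each class, with 95% counting intervals; red marks pairs past the size rule, dotted lines mark 1.5-fold, and classes with under 20 UMIs are left blank. The red pairs all lie to the right of 0, with Lag3 in 5 classes and Havcr2 in 3.

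In CD8 T cells Lag3 and Havcr2 were higher in KO, and 2 of 8 measured members is to be read against 7.65% of features higher and 4.67% lower. Lag3 had 2790 UMIs in KO and 939 in WT, a log2 ratio of 0.64 (0.53 to 0.75). Havcr2 had 1388 UMIs in KO and 476 in WT, a log2 ratio of 0.62 (0.46 to 0.77). The thinned share of cells with a Lag3 UMI was 11.6% in KO and 6.54% in WT (33.9% and 17.9% unthinned), and that for Havcr2 was 5.09% and 2.68% (22.0% and 11.4%). Median depths were 7197 UMIs in KO and 7135 in WT CD8 cells. The mean depth was higher in KO, with 26594736 UMIs in 2309 KO cells and 13968950 UMIs in 1535 WT cells. Tigit, at 0.37 (-0.07 to 0.82), Cd96, at 0.13 (-0.00 to 0.26), and Cd226, at -0.25 (-0.35 to -0.16), were within 1.5-fold. Scaling by the median of gene ratios brought Lag3 to 0.55 and Havcr2 to 0.53, below the 0.58 that marks 1.5-fold. Beside these 2 genes, summed erythroid genes were at 1.88 CPM in KO and 367 CPM in WT CD8 cells, where 1 WT cell held 98.0% of the Hbb-bs UMIs. The B-cell genes listed, which include Cd74, summed to 255.5 CPM in KO and 320 CPM in WT, with 3 of 5 measured genes lower. The part of these RNAs was not tested.

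The states of the CD8 cells differed in share between the libraries. Cycling cells made up 22.7% of KO and 12.7% of WT CD8 cells, and resting cells, defined by a set of genes that includes Ccr7, Lef1 and Tcf7, 27.6% and 49.3%. Within cycling cells Lag3 was at 121 CPM in KO and 115 CPM in WT, a log2 ratio of 0.08 (-0.07 to 0.23), and Havcr2 at 70.3 and 69.1 CPM, a ratio of 0.03 (-0.17 to 0.22). Resting cells had 19.8 CPM of Lag3 in KO and 13.5 CPM in WT, a ratio of 0.55 (0.12 to 0.99), and the remaining cells 131 and 103 CPM, a ratio of 0.35 (0.18 to 0.52). No member passed the size rule in any of the 3 states. In cycling cells 2.29% of features were higher and 3.93% lower, in resting cells 3.72% and 1.49%, and in the remaining cells 2.67% and 2.2%. With the KO states weighted by the WT mix, an alternative chosen after seeing the data, the Lag3 ratio was 0.24 and the Havcr2 ratio 0.07. The part of the state mix in the class-wide ratios was not tested further.

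Pdcd1, which encodes the inhibitory receptor PD-1, was higher in KO CD8 T cells at 166 CPM against 86.9 CPM in WT. Splitting CD8 cells by a Pdcd1 UMI, also after seeing the data, placed 905 of 2309 KO and 296 of 1535 WT cells in the Pdcd1-positive part. There Lag3 was at 148 CPM in KO and 165 CPM in WT, a ratio of -0.16 (-0.27 to -0.04), and Havcr2 at 75.3 and 81.8 CPM. Cd226 was lower in the Pdcd1-positive KO cells, at 76.7 CPM against 117 CPM in WT, a ratio of -0.60 (-0.74 to -0.46), as 1 of 8 measured members where 1.62% of features were higher and 3.43% lower. Cells with no Pdcd1 UMI had 24.4 CPM of Lag3 in KO and 12.5 CPM in WT, a ratio of 0.97 (0.63 to 1.31), as 1 of 8 members where 3.54% of features were higher and 1.65% lower. Their Cd226 was at 104 CPM in KO and 95.1 CPM in WT. Cycling CD8 cells also had less Cd226 in KO, at 72.7 CPM against 108 CPM in WT, a ratio of -0.57 (-0.73 to -0.40) that stopped short of 1.5-fold.

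**Figure D3:**
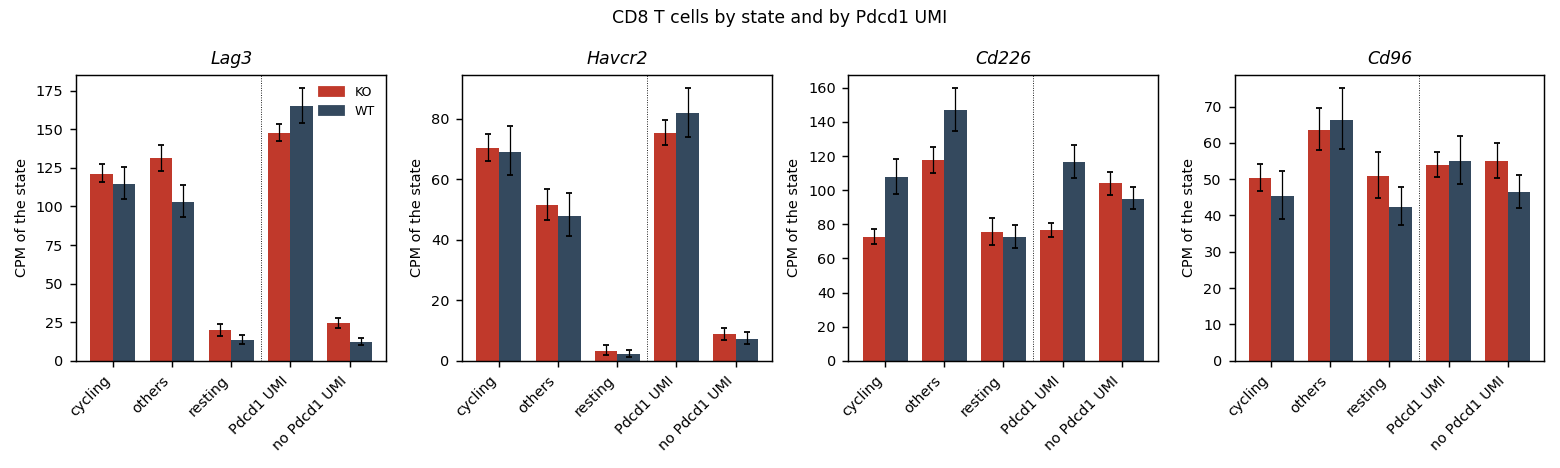
Levels of Lag3, Havcr2, Cd226 and Cd96 in CD8 T cells by state (left of the dotted line) and by presence of a Pdcd1 UMI (right of it), in CPM of the state with exact 95% Poisson intervals, KO left of WT. Lag3 and Havcr2 differ more between states than between libraries, and Cd226 is lower in KO in cycling (72.7 against 108 CPM) and Pdcd1-positive cells (76.7 against 117 CPM).

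Co-detection of the 3 inhibitory receptors in CD8 cells was counted at 2000 UMIs per cell. No receptor was seen in 84.3% of 2300 KO and 90.4% of 1528 WT cells, 1 receptor in 13.8% and 8.84%, and 2 receptors in 1.78% and 0.785%. All 3 were seen in 2 KO cells and in 0 of 1528 WT cells, which allows a share of up to 0.196%. Lag3 and Havcr2 together were found in 1.74% (1.25% to 2.36%) of KO and 0.589% (0.270% to 1.12%) of WT cells. The product of their single shares was 0.588% in KO and 0.176% in WT, below the measured share in both libraries. Without cycling cells the pair was found in 1.35% of KO and 0.450% of WT cells. At 3000 UMIs per cell it was found in 3.69% of KO and 1.89% of WT cells, and without thinning in 19.1% and 8.34%, so the size of the difference depends on depth.

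In Treg cells Lag3 was the 1 higher member of 8 measured, where 2.1% of features were higher and 2.48% lower by the same rule. It had 229 UMIs in KO and 71 in WT, a log2 ratio of 0.60 (0.21 to 1.01). At the WT mix of states it was 0.576, below 1.5-fold. Foxp3 itself was at 28.7 CPM in KO and 135 CPM in WT Treg cells, a ratio of -2.23 (-2.52 to -1.95), and Ighm, Cd74, Apoe and Cd68 of other cells were also lower. Their part in the Lag3 ratio was not tested. Thinned shares were 7.25% of KO and 4.74% of WT cells, unthinned 18.5% and 16.2%, at median depths of 5484.5 and 6520 UMIs. In clusters in place of gates the ratio was 0.11 (-0.22 to 0.46), so the Lag3 call in Treg cells depends on which cells are taken as Treg cells. Tigit leaned the other way, at 10.1 CPM in KO and 15.5 CPM in WT, a ratio of -0.62 (-1.24 to 0.02) whose interval included 0. Havcr2 was at 21.6 CPM in KO and 23.1 CPM in WT Treg cells, a ratio of -0.10 (-0.57 to 0.38).

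Conventional CD4 T cells had 15.1 CPM of Lag3 in KO and 5.81 CPM in WT (62 and 14 UMIs), a ratio of 1.38 (0.53 to 2.33). Havcr2 was at 8.77 CPM in KO and 2.49 CPM in WT there (36 and 6 UMIs), a ratio of 1.82 (0.56 to 3.35). These were 2 of 7 measured members, where 6.76% of features were higher and 2.16% lower, and their intervals are wide at these counts. Resting cells made up 31.0% of KO and 48.9% of WT conventional CD4 T cells, and cycling cells 5.94% and 2.59%. At the WT mix of states the ratios were 1.03 for Lag3 and 1.64 for Havcr2, and the part of this mix was not tested. In the cluster named for conventional CD4 T cells, 50.8% of gated cells were of that class. The ratios there were 0.40 for Lag3 (-0.38 to 1.22) and 1.32 for Havcr2 (-0.27 to 3.34), and both intervals included 0. Beside them, 2 of 4 NK-cell genes, Ncr1 and Prf1, were higher, with the list at 80.1 CPM in KO and 60.6 CPM in WT, and its part was not tested. T cells outside the gates had 3 of 8 measured members higher, where 4.83% of features were higher and 2.72% lower, namely Lag3 at 0.82 (0.52 to 1.13), Havcr2 at 0.99 (0.53 to 1.46) and Tigit at 1.06 (0.04 to 2.19). Thinned to 2000 UMIs the ratios in these cells were 0.32 for Lag3, -0.10 for Havcr2 and 0.75 for Tigit, and all 3 calls were lost, as was that of Tigit with scaling by the median of gene ratios. RNA of other cells also differed here, with summed erythroid genes at 1.88 CPM in KO and 1719 CPM in WT, where 1 WT cell held 57.3% of the Hbb-bs UMIs. Neutrophil genes were at 1.88 CPM in KO and 58.8 CPM in WT, with 1 WT cell holding 87.6% of the S100a9 UMIs. B-cell genes were at 698 CPM in KO and 353 CPM in WT, where 1 KO cell held 91.5% of the Igkc UMIs while Cd79a, Cd79b and Ighm were lower in KO, and the part of these RNAs was not tested. Gamma-delta T cells had 0 of 6 members past the rule, against 2.8% of features higher and 3.09% lower, with Cd226 at 0.38 (0.06 to 0.71).

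In NK cells all measured members were within 1.5-fold or had an interval that included 0, with 0 of 7 measured members past the rule, against 2.33% of features higher and 1.48% lower. Cd226 had 786 UMIs in KO and 398 in WT, a ratio of 0.30 (0.13 to 0.48). Cd244a, with 1106 and 599 UMIs, was at 0.21 (0.06 to 0.35), and Cd96, with 446 and 279 UMIs, was at -0.00 (-0.22 to 0.22). Within NK cells, levels of Cd226 followed the marker type. The 1123 KO and 660 WT cells with mature-type genes (Klra4, Klra8, Klra9, Klrg1 and Itgam) had 50.7 and 30.4 CPM of Cd226, a ratio of 0.74 (0.43 to 1.06). The 53 KO and 41 WT cells with genes of tissue-resident type 1 innate lymphoid cells (Itga1, Cxcr6, Tnfsf10 and Cd200r1) had 179 and 168 CPM, and cells of neither type 87.9 and 81.5 CPM. Lag3 was also higher in mature-type KO cells, at 7.50 CPM against 3.93 CPM in WT (45 and 15 UMIs), a ratio of 0.93 (0.06 to 1.88). These were 2 of 7 measured members, where 2.97% of features were higher and 1.65% lower. Summed erythroid genes were at 3.72 CPM in KO and 749 CPM in WT NK cells as a whole, where 1 WT cell held 98.6% of the Hbb-bs UMIs. Cd96 in mature-type cells was at 38.0 CPM in KO and 39.5 CPM in WT.

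**Figure D4:**
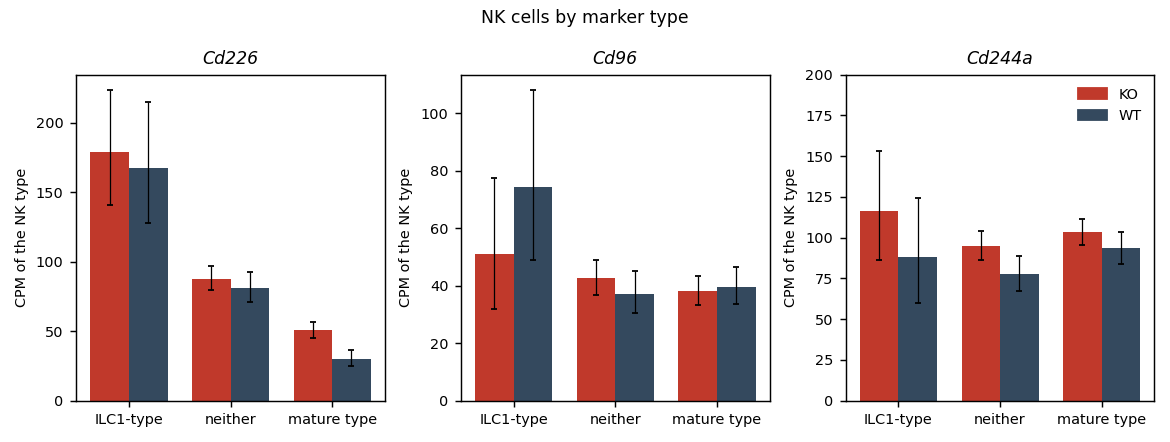
Levels of Cd226, Cd96 and Cd244a in NK cells by marker type, in CPM of the type with exact 95% Poisson intervals, KO left of WT. Cd226 is highest in ILC1-type cells (179 and 168 CPM) and lowest in mature-type cells (50.7 and 30.4 CPM), where KO lies above WT.

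Among myeloid cells, 1 of 5 measured members was higher in KO monocytes, where 3.36% of features were higher and 3.93% lower, and 0 of 5 passed the rule in macrophages, against 2.58% higher and 3.86% lower. The monocyte gene was Lgals9, with 1433 UMIs in KO and 584 in WT and a ratio of 0.59 (0.45 to 0.73), just past 1.5-fold. The thinned share of monocytes with a Lgals9 UMI was 24.4% in KO and 16.8% in WT (58.4% and 51.5% unthinned), at median depths of 8359.5 and 9275 UMIs. B cells, which also express Lgals9, had thinned shares of 8.89% and 8.03%. In the clusters named for monocytes the ratio was 0.27 (0.19 to 0.35). In the larger of these, 64.2% of gated cells were monocytes, and 28.8% of all its cells were mixed. Summed erythroid genes were at 448 CPM in KO and 973 CPM in WT monocytes, where 1 cell held 98.7% of the KO and 48.4% of the WT Hbb-bs UMIs, and their part was not tested. Macrophages had a Lgals9 ratio of 0.04 (-0.11 to 0.20). Havcr2 in monocytes was at -0.38 (-0.63 to -0.13) and in cDC1 at -0.43 (-0.85 to -0.01), both within 1.5-fold, the direction opposite to that in CD8 T cells.

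In cDC1, Lag3 was higher in KO with 18 UMIs against 6 in WT, a ratio of 1.57 (0.18 to 3.19), as 1 of 6 measured members where 4.69% of features were higher and 5.3% lower. The levels were 6.26 CPM in KO and 2.11 CPM in WT, and 10.96% and 4.48% of cells held a UMI, 1.37% of KO and 0 of 132 WT cells after thinning, which allows up to 2.27%. In clusters the ratio was 0.27 (-0.15 to 0.68) and without cycling cells 1.03 (-0.57 to 2.77), and neither passed the rule. Beside this, summed melanoma genes were at 500.4 CPM in KO and 10.9 CPM in WT cDC1, with 5 of 6 genes higher and 1 KO cell holding 89.0% of the Dct UMIs. Summed macrophage and monocyte genes were at 1534 CPM in KO and 3501 CPM in WT, with all 7 lower, and their part in the result was not tested. In pDC, Cd244a was higher in KO at 49.98 CPM against 28.8 CPM in WT (48 and 58 UMIs), a ratio of 0.79 (0.21 to 1.37), as 1 of 4 measured members where 2.48% of features were higher and 2.74% lower. The call was lost with the top Scrublet scores removed, at 0.59 (-0.03 to 1.21), and when thinned, at 0.77 (-0.47 to 1.99). Summed macrophage and monocyte genes were at 711 CPM in KO and 940 CPM in WT pDC, with 3 of 7 lower, and their part was not tested. Lag3 in pDC was at 0.14 (-0.14 to 0.41). In cDC2 0 of 6 members passed the rule, against 3.86% of features higher and 2.67% lower, and in B cells 0 of 4, against 5.08% higher and 8.5% lower.

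The balance of the Tigit family within a class does not depend on the class total. For every 100 Cd226 UMIs, CD8 T cells held 6.54 Tigit UMIs (5.51 to 7.72) in KO and 4.25 (3.23 to 5.49) in WT. Treg cells held 15.9 (11.7 to 21.3) in KO and 22.8 (15.7 to 32.5) in WT, and NK cells 7.0 (5.22 to 9.2) and 7.29 (4.82 to 10.6). The CD8 intervals did not overlap, while those of Treg and NK cells did. Cd96 UMIs per 100 Cd226 UMIs were 63.0 (58.9 to 67.3) in KO and 48.2 (43.9 to 52.8) in WT CD8 T cells, and 56.7 (50.4 to 63.8) and 70.1 (59.9 to 81.9) in NK cells. Treg cells held 55.8 Cd96 UMIs (46.4 to 66.8) in KO and 39.2 (29.1 to 52.3) in WT, with overlapping intervals. T cells outside the gates held 5.01 Tigit UMIs (3.44 to 7.08) in KO and 2.14 (1.06 to 3.85) in WT per 100 Cd226 UMIs, also with overlapping intervals. These are ratios within a library and capture of the 2 RNAs need not be equal. The states of the CD8 cells also differed in share between the libraries. At the WT mix of states, log2 ratios of KO over WT in CD8 T cells were 0.04 for Tigit, 0.13 for Cd96 and -0.26 for Cd226. The part of the state mix in the CD8 balances was not tested.

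Among the partner genes of Lag3, Fgl1, a liver-derived Lag3 ligand, had 0 UMIs in all classes of both libraries. Clec4g, which encodes the C-type lectin LSECtin, reached 20 UMIs in cDC2 alone, where it was lower in KO at 10.0 CPM against 18.3 CPM in WT, a ratio of -0.87 (-1.45 to -0.29). Lgals3, which encodes galectin-3, was higher in KO NK cells at 201 CPM against 77.7 CPM in WT, a ratio of 1.37 (1.23 to 1.51). It was also higher in KO gamma-delta T cells at 205 CPM against 69.9 CPM in WT and in conventional CD4 T cells at 183 against 105 CPM. In pDC, the class with most Lag3, 2 of 4 measured Lag3 ligand genes were lower in KO, H2-Ab1 at 803 CPM against 1340 CPM (-0.74) and H2-Eb1 at 520 against 902 CPM (-0.80). In Treg cells H2-Aa, H2-Ab1 and H2-Eb1 were lower in KO, with H2-Ab1 at 88.5 CPM against 225 CPM, but 1 cell held 32.8% of the KO and 21.2% of the WT UMIs. The B-cell list, which includes Cd74, was lower too, at 430.5 CPM in KO and 784 CPM in WT Treg cells. It summed to 12835 CPM in KO cDC2, so it is not specific to B cells, and its part was not tested. The same 3 genes were higher in KO gamma-delta T cells, where 1 cell held 51.1% of the KO H2-Ab1 UMIs. H2-Ab1 and H2-Eb1 were also higher in KO conventional CD4 T cells (0.62 and 0.71), and H2-Aa was lower in KO T cells outside the gates (-0.60). Of all measured features, 2.48% were higher and 2.74% lower in pDC, and 2.1% and 2.48% in Treg cells. The shares were 2.8% and 3.09% in gamma-delta T cells, and 6.76% and 2.16% in conventional CD4 T cells. T cells outside the gates had 4.83% and 2.72%.

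On the other axes, Ceacam1 was at 38.8 CPM in KO and 44.8 CPM in WT monocytes and was also within 1.5-fold in macrophages, cDC1, cDC2 and pDC. It was lower in KO B cells, at 11.8 CPM against 18.2 CPM in WT (-0.62). Timd4, a relative of Tim-3 that binds phosphatidylserine, was higher in KO cDC2 at 7.40 CPM against 2.36 CPM (34 and 8 UMIs) and lower in KO cDC1 at 2.78 against 7.38 CPM (8 and 21 UMIs). Crtam, which encodes a receptor related to Cd96 and Cd226, was lower in KO gamma-delta T cells at 28.5 CPM against 45.5 CPM in WT and in T cells outside the gates at 15.6 against 24.5 CPM. Sh2d1b1, which encodes the adaptor EAT-2 used by Cd244a, was at 45.1 CPM in KO and 46.4 CPM in WT NK cells. Its close copy Sh2d1b2 was higher there at 1.72 CPM against 0.435 CPM (19 and 3 UMIs), and reads shared by the 2 copies could move this value.

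Of 12 other co-inhibitory and dysfunction genes, 3 were higher in KO CD8 T cells and 1 lower, with a median ratio of 0.48 against 0.09 over all measured features. Among the higher genes were Pdcd1 (0.93) and Tox. Tox, a transcription factor of exhausted T cells, was at 141 CPM in KO and 84.1 CPM in WT (0.75). Btla, an inhibitory receptor of resting lymphocytes, was the lower gene at 6.92 CPM in KO and 11.7 CPM in WT (-0.75). Conventional CD4 T cells had 4 of 12 higher, led by Pdcd1 at 66.5 CPM in KO and 28.6 CPM in WT (1.22), and none lower. T cells outside the gates had 5 of 11 higher, among them Pdcd1 (0.96), Cd200 (1.03) and Ctla4 (0.64). In Treg cells 1 of 12 was higher, Pdcd1 at 113 CPM in KO and 62.9 CPM in WT (0.85). NK cells had 1 of 9 higher, Entpd1 at 9.70 CPM in KO and 5.95 CPM in WT (0.71). In macrophages 1 of 7 was lower, Cd200, and in B cells 3 of 9 were higher and 2 lower. Of all measured features, 7.65% were higher and 4.67% lower in CD8 T cells, and 6.76% and 2.16% in conventional CD4 T cells. The shares were 4.83% and 2.72% in T cells outside the gates, 2.1% and 2.48% in Treg cells, and 2.33% and 1.48% in NK cells. Macrophages had 2.58% and 3.86%, and B cells 5.08% and 8.5%. Ctla4 is a gene of the Treg gate, so its values in Treg cells and T cells outside the gates depend on that gate.

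Some genes followed the members closely over the 24 sums of 12 classes in 2 libraries, by Pearson correlation of log2(CPM + 1). The points share libraries and differ in depth and base composition, so these are descriptions. Cd96 was followed by Skap1, an adaptor of T-cell receptor signalling (r = 0.991), Thy1 (0.988) and Sh2d1a (0.985), the gene of the adaptor SAP. Cd226 was followed by Rinl (0.956), Ipcef1 (0.938) and Kif2a (0.937), and Lgals9 by Dync1i2 (0.915), Furin and Por (0.909 each). For Cd244a the closest were Elmo2 (0.897), Itgax (0.886) and Fcer1g (0.879), for Lag3 Mrps16 (0.875), Sms (0.868) and Tecr (0.864), and for Havcr2 Siva1 (0.855), Tmpo (0.854) and Pfdn4 (0.850). Tigit, Pvr and Nectin2 did not reach the 50 CPM set for this description.

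Cells with both T-cell and phagocyte genes were the largest group set aside, with 714 in KO and 504 in WT. Their summed Cd3e was at 238 CPM in KO and 203 CPM in WT, and Lyz2 at 3081 and 3613 CPM. They held 59.9 CPM of Lag3 in KO and 46.6 CPM in WT, and 45.2 and 44.5 CPM of Cd226. Gated monocytes had 0.660 CPM of Lag3 in KO and 0.180 CPM in WT, a level far below that of the mixed cells. CD8 T cells, at 105 CPM in KO and 67.2 CPM in WT, lay above the mixed cells. All cells set aside as mixed had median depths of 20750 UMIs in KO and 17833 in WT, against 7197 and 7135 in CD8 T cells. Whether the mixed cells were doublets was not tested.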

How the data were processed

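Single-cell RNA of sorted CD45+ cells was measured in 2 libraries, KO and WT. The authors deposited raw UMI counts per gene and barcode. Cell Ranger 5.0.0 made the matrices per the file headers, and Cell Ranger, STAR and mm10 are named per the submitters' processing notes; the annotation release and strand setting are not given in the sources used here. Of 32285 features, 32158 were placed in GENCODE on GRCm38 by identifier.

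The libraries held 11398 KO and 11432 WT barcodes with 112544655 and 98438084 UMIs. Cells were gated by UMIs of fixed marker genes, cells of 2 lineages were set aside, and counts were summed per class and scaled to the class sum. Intervals are exact (Poisson, Clopper-Pearson, or conditional binomial for a ratio), at 95%, and cover counting error only. What a count of 0 allows is given as a limit of 3 counts, which is tighter than the upper end of these intervals. A pair was measured with 20 or more UMIs over both libraries, and past the size rule at 1.5-fold with an interval that excluded 1. No test was run, since each genotype was 1 library. Scrublet in scanpy 1.11.5 called 0 KO cells and 379 WT cells (3.40%); with 0 cells called in one library the caller was taken not to have worked there, for a cause not tested, so no call was used and removal of the top scores (1015 KO and 1020 WT cells) was an alternative. The alternatives tried were another scaling, Leiden clusters, a stricter cell filter, a stricter gate, thinning to 2000 UMIs (3000 or none for shares of cells), a mean over cells, and leaving out cycling cells; the mix of states, the Pdcd1 split and leaving out the cell with most UMIs were added after seeing the data. The size rule was checked only on simulated Poisson counts at CD8 means, with 2-fold changes in genes of many UMIs. That check did not cover changes of 1.5-fold, changes in genes near 20 UMIs, smaller classes or spread between cells.

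The rule let the 9 members be named in any compared class. Genes of the partner and co-inhibitory lists were to be named where measured and past the size rule, up to 6 a class; the few named inside the rule, such as Sh2d1b1, were chosen after their values were seen. The 3 genes most like a member were taken among 4563 genes of at least 50 CPM in some class, with a pseudocount of 1 CPM. Some listed genes are not reported here by name. Members and lists were chosen with earlier results of these data known. Analyses used numpy 2.4.6, scipy 1.17.1 and pandas 2.3.3.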

Additional observations from a re-analysis of the deposited data

How the results depend on the processing

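No paired analysis was possible because each genotype was 1 library and the labels give no shared replicate numbers. For the same reason no library could be left out. In CD8 T cells the Lag3 log2 ratio of KO over WT, 0.64, was 0.88 without cycling cells, 0.86 as a mean over cells, 0.24 at the WT mix of states, 0.97 in cells with no Pdcd1 UMI and -0.16 in cells with one. The Havcr2 ratio, 0.62, was 0.91 with cells thinned to 2000 UMIs, 0.073 at the WT mix of states, 0.27 in cells with no Pdcd1 UMI and -0.12 in cells with one. Lgals9 in macrophages, 0.04, was 0.34 when thinned. Havcr2 in T cells outside the gates, 0.99, was -0.10 when thinned, and its log2 level in KO CD8 T cells over KO monocytes was -0.47 thinned, -0.0353 without cycling cells and -0.19 as a mean over cells. The cause of these shifts was not tested. Each of the 11 calls fell below the size rule under at least 1 of the 8 or 9 other settings listed in the methods, for Lag3 in Treg cells and Lgals9 in monocytes under 4. Features past the rule in CD8 T cells numbered 1501, against 540 at 2-fold, 716 when thinned and 723 without cycling cells; the count moved by over 1.5 times in all 12 classes at 2-fold, in 9 when thinned and in 2 each in clusters and without cycling cells. Clusters gave no macrophage class and no class of T cells outside the gates. Pairs of few UMIs were limited by depth, with 34 of 108 not measured. Of 16 shares of cells, 13 moved beyond their interval at 3000 UMIs per cell and all 16 without thinning.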
